A study of Mus musculus with 15 samples.

Results

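The 9 genes described here mark or build the organizer at the junction of midbrain and hindbrain: the homeobox genes En1, En2, Gbx2 and Lmx1b, the paired box genes Pax2 and Pax5, and the secreted ligands Fgf8, Fgf17 and Wnt1. They were chosen by name, as the classical genes of this border, from the 30534 features counted in whole sections of mouse embryos. The rule of choice uses no measured value. The members and the gene lists used below were, however, chosen with earlier results of these data known. The sections were read with DBiT-seq, in which crossed microchannels print spatial barcodes on frozen tissue so that every square pixel of a grid yields its own transcript counts. A pixel is a small area that can hold several cells of different types or parts of cells. The 11 transcript libraries came from embryos of embryonic day 10 (E10) at pixel widths of 50 µm (3 libraries), 25 µm (1) and 10 µm (2), from day 11 (E11) at 25 µm (2) and 10 µm (2), and from day 12 (E12) at 50 µm (1). The labels name the tissue as embryo and give no strain, genotype or sex. They do not say whether libraries of 1 group came from separate embryos, so the spread between them may be technical, and they do not say which parts of the embryo a section covers.

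The border between midbrain and hindbrain forms where the domain of Otx2, the homeobox gene of forebrain and midbrain, meets that of Gbx2, its counterpart in the anterior hindbrain. Along this line Wnt1 is transcribed on the midbrain side and Fgf8 on the hindbrain side, while En1, En2, Pax2 and Pax5 span both sides, and FGF8 protein made there patterns the tectum and the cerebellum. Most of these genes also act elsewhere in the embryo, for example Fgf8 and Fgf17 in the front of the forebrain, Lmx1b in the dorsal limb, Wnt1 along the dorsal neural tube, and Pax2 in the eye, the ear, the kidney and inhibitory interneurons.

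Depth bounded what could be seen. Summed over tissue pixels, libraries held between 1563489 and 11998765 counts, with a median per pixel from 843.5 at E10 25 µm to 11332 at E10 50 µm replicate 1. The 9 genes together gave between 11 counts, in E11 10 µm replicate 2, and 1189 counts, in E10 50 µm replicate 1. All 9 had a count in every E10 50 µm library and in E10 10 µm replicate 1, and between 4 and 8 of them had one in the other libraries. Levels are given as CPM, the counts of a gene per 1000000 counts of all genes over the tissue pixels of a library. Intervals and floors cover counting error only.

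Libraries of a group differed in the levels of regional marker genes. Otx2 measured 85.7, 87.2 and 165.5 CPM in the E10 50 µm replicates 1 to 3, but had no count in either E11 25 µm library and 57.6 against 0.729 CPM in the E11 10 µm replicates 1 and 2. Hoxa2, a hindbrain gene, ran from 16.0 to 27.0 CPM at E10 50 µm and from 0 to 3.20 CPM in the E10 25 and 10 µm libraries. These marker levels thus changed together with stage and width. In these sums less midbrain or hindbrain in a section, a smaller domain and less RNA per cell cannot be told apart.

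In the pooled E10 50 µm libraries, En1 shared more pixels than expected (defined below) with both Pax5 (ratio 1.85) and Gbx2 (1.45). Gbx2 and En2 shared fewer pixels than expected (0.538). Sequences upstream of En1, Pax5 and Gbx2 are shown because the domains of these 3 members are compared in what follows. Each is from RefSeq (GRCm38.p6) on the strand of the gene, 5′ to 3′, and covers up to 250 bases before the RefSeq start, without the bases that lie inside the gene in GENCODE (69 for En1 and 3 for Gbx2). Capitals mark an ATTA homeodomain core or a CCAAT box on either strand. The windows are chr1:120602237-120602417 (plus strand) for En1, chr4:44710695-44710944 (minus strand) for Pax5 and chr1:89931180-89931426 (minus strand) for Gbx2.
En1: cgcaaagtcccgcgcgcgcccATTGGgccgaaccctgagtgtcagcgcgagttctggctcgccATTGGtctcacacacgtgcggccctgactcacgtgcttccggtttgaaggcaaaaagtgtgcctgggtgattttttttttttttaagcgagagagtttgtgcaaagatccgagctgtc
Pax5: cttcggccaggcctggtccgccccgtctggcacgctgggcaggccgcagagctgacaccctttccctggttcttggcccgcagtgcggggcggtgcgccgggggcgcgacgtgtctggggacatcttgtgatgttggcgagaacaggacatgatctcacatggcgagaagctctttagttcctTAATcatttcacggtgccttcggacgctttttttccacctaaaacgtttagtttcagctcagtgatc
Gbx2: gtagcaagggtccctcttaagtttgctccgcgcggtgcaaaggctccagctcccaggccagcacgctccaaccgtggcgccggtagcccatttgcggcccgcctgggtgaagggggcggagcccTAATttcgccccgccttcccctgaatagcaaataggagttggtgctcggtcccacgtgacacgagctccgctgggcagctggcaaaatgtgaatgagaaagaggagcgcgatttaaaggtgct
The En1 window held 2 CCAAT boxes, beginning at -229 and -187 from the RefSeq start, and no ATTA. Pax5 held 1 ATTA at -67 and Gbx2 held 1 at -126, whereas 54.9% of all 32851 such windows hold ATTA and 33.8% hold CCAAT. None of these 3 windows held the Otx motif TAATCC, the Tcf/Lef motif CTTTGAT or the Ets motif CCGGAAGT, which stand in 6.25%, 3.21% and 2.88% of windows. The counts on which the rest rests were all of transcripts, and no binding was measured.

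Most counts of the 9 genes came from the 3 E10 50 µm libraries, which gave 93.2% of all En2 counts and 92.8% of those of Pax5, but only 48.7% of those of Pax2 and 53.3% of those of Lmx1b. Genes are taken below in the order of their roles: first the factors that fill both sides of the border, then the ligands, then the factors of one side or of other tissues. Some groups, each of few libraries, are said not to overlap or to lie above others. The share of all genes for which this holds was not computed, so these statements describe values only.

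En1, an engrailed homeobox factor needed for midbrain and cerebellum and also made in ventral limb ectoderm, dermomyotome and ventral spinal interneurons, measured 11.4, 2.03 and 19.2 CPM in the E10 50 µm replicates 1 to 3. It measured 2.56 CPM at E10 25 µm, 0.333 and 0 CPM at E10 10 µm, 2.96 and 4.82 CPM at E11 25 µm, 0.778 and 2.19 CPM at E11 10 µm, and 6.92 CPM at E12. En1 was thus high in 2 of the 3 E10 50 µm libraries, and its 3 values spanned those of every E11 25 µm library and of E12. The 3 E10 50 µm values did not overlap with those at E10 10 µm.

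En2, the second engrailed gene and the more restricted to midbrain and cerebellum, measured 21.5, 1.19 and 29.2 CPM in the E10 50 µm replicates. It measured 5.76 CPM at E10 25 µm and 0.667 and 0.944 CPM at E10 10 µm. At E11 it had no count in both 25 µm libraries, which over the pair allows up to 0.235 CPM, against 7.00 and 0 CPM at 10 µm, and at E12 it had 1 count (0.154 CPM). Every library with En2 above 5 CPM also held Otx2 above 50 CPM, but E10 50 µm replicate 2 and both E10 10 µm libraries held Otx2 with En2 near 1 CPM.

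Pax2, the earliest paired box factor of this border, measured 4.23, 2.86 and 4.04 CPM in the E10 50 µm replicates. It measured 3.84 CPM at E10 25 µm, 3.08 and 2.45 CPM at E10 10 µm, 1.97 and 1.17 CPM at E11 25 µm and 2.31 CPM at E12. The E11 10 µm pair held both its highest and its lowest value, 11.7 CPM in replicate 1 and 0.365 CPM in replicate 2, and the other 9 libraries lay between them.

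Pax5, which acts with Pax2 at the border and later in B cells, measured 18.9, 7.87 and 29.4 CPM at E10 50 µm. It measured 2.56 CPM at E10 25 µm, 1.25 and 0 CPM at E10 10 µm, 0.592 and 1.04 CPM at E11 25 µm, 3.11 and 0 CPM at E11 10 µm, and 1.23 CPM at E12. All 3 E10 50 µm values lay above all 8 others.

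Fgf8, the ligand that carries the organizer's signal, measured 6.26, 0.953 and 1.505 CPM at E10 50 µm, 3.20 CPM at E10 25 µm and 2.17 and 1.70 CPM at E10 10 µm. Its E11 values were 0.197 and 0.651 CPM at 25 µm and 7.78 and 0 CPM at 10 µm, and its 3 counts at E12 made 0.462 CPM. The E10 50 µm values spanned those of the other E10 widths, and the E10 25 µm value lay above both E10 10 µm values.

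Fgf17, a related ligand with a broader and later domain, measured 10.8, 4.53 and 5.92 CPM at E10 50 µm, 11.5 CPM at E10 25 µm and 4.42 and 0.566 CPM at E10 10 µm. After E10 it was found in 2 libraries, at 0.130 CPM (1 count) in E11 25 µm replicate 2 and 2.72 CPM (7 counts) in E11 10 µm replicate 1, and it had no count at E12. All 6 E10 libraries thus held Fgf17, as did 2 of the 5 later ones.

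Wnt1, the ligand of the midbrain edge and of the dorsal midline, measured 4.67, 2.74 and 2.73 CPM at E10 50 µm and 0.417 and 0 CPM at E10 10 µm. It had no count at E10 25 µm, where 3 counts would make 1.92 CPM. At E11 it measured 4.54 and 4.56 CPM at 25 µm and had no count in either 10 µm library, and it had none at E12. Neither the E10 50 and 10 µm values nor the E11 25 and 10 µm values overlapped, and the share of all genes without overlap was not computed.

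Gbx2, the factor of the hindbrain side, measured 18.5, 5.72 and 5.83 CPM at E10 50 µm, 5.12 CPM at E10 25 µm and 0.583 and 0 CPM at E10 10 µm. At E11 it measured 3.36 and 4.82 CPM at 25 µm and 1.56 and 0.365 CPM at 10 µm, without overlap, and at E12 0.769 CPM.

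Lmx1b, which maintains Wnt1 at the border and also specifies monoamine neurons and dorsal limb, measured 8.46, 6.20 and 8.37 CPM at E10 50 µm, 8.95 CPM at E10 25 µm and 6.08 and 3.77 CPM at E10 10 µm. It measured 3.16 and 5.34 CPM at E11 25 µm, 5.84 and 1.09 CPM at E11 10 µm, and its 26 counts at E12 were in 23 pixels. Lmx1b and Pax2 were the members with a count in all 11 libraries.

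**Figure D1:**
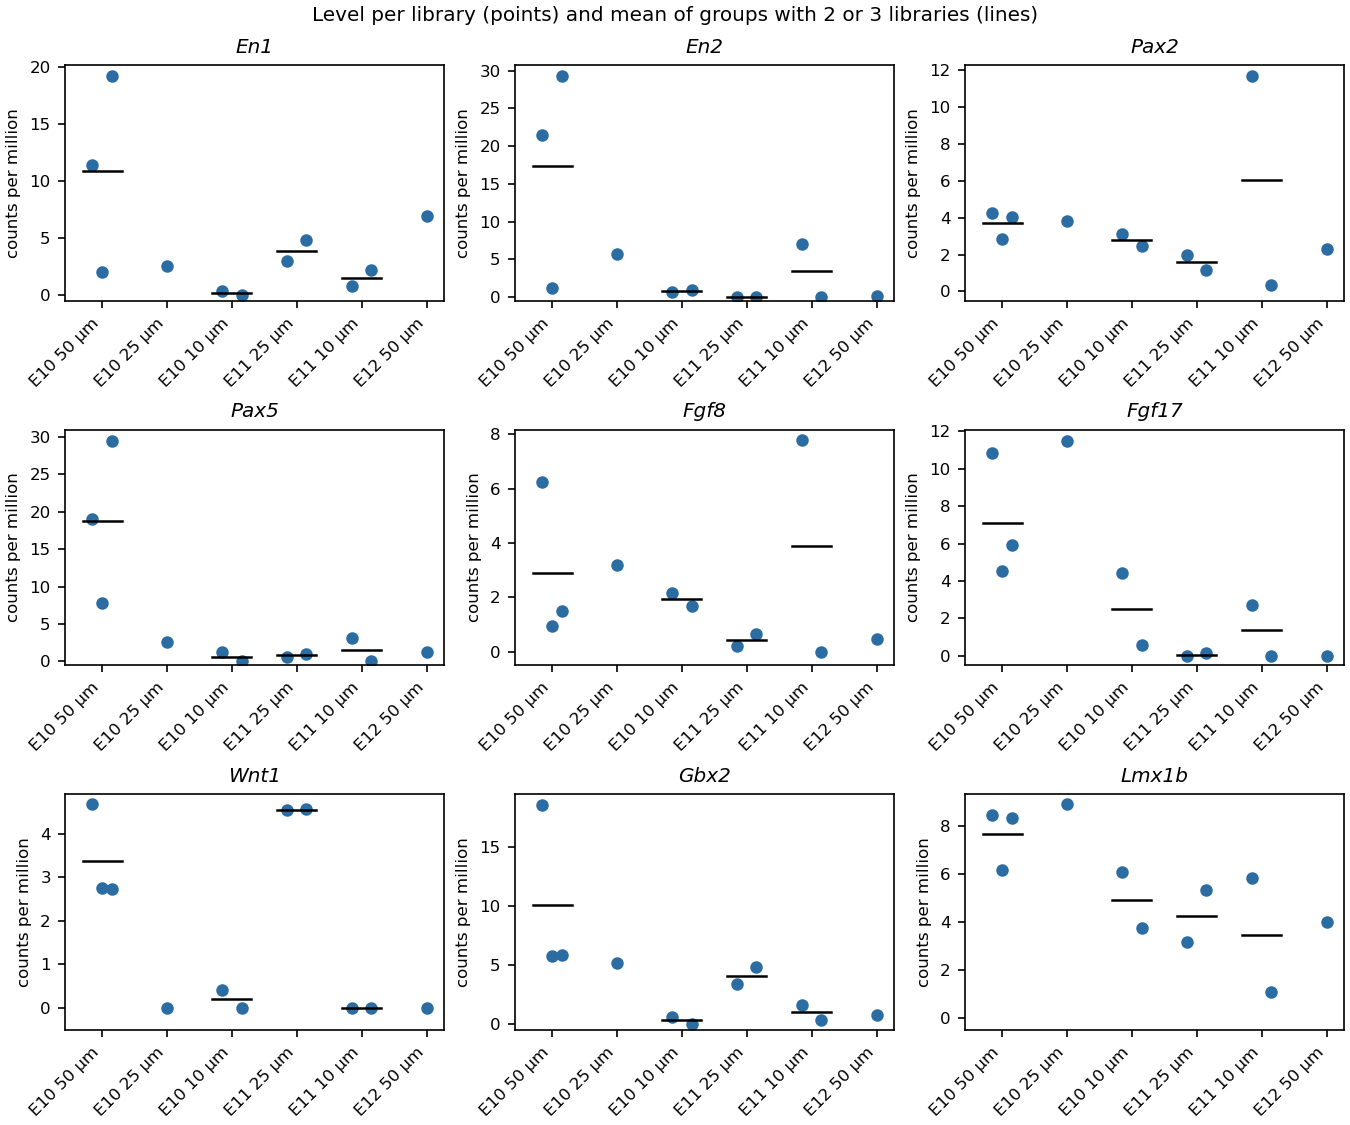
Level of each of the 9 genes in each of the 11 libraries, in CPM over tissue pixels, with libraries grouped by embryonic day and pixel width and 1 point per library. En2 and Pax5 stand at 18.9 CPM or above in E10 50 µm replicates 1 and 3, and Wnt1 is at 4.54 and 4.56 CPM in the E11 25 µm libraries and without a count in both E11 10 µm libraries.

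Differences between groups were tested over all 18233 genes with enough counts, all 9 members among them, with edgeR's quasi-likelihood test on library sums. Between E10 10 and 50 µm none of the 9 members passed an adjusted p of 0.05, beside a background of 0.11% of all genes called, although 5 had an unadjusted p under 0.05, as did 10.8% of all genes. The median log2 fold change of the 9 members was -3.57, beside -0.03 for all genes. The lowest adjusted p in edgeR's test was that of Gbx2, 0.0720 (log2 fold change -4.67, SE 0.892), followed by En1 at 0.0892 (-5.49, SE 1.09), Wnt1 at 0.0988 (-3.57, SE 0.827) and Pax5 at 0.103 (-4.57, SE 1.05). Pax2 (-0.38, SE 0.779) and Lmx1b (-0.59, SE 0.530) lay near 0. DESeq2 called En1, Pax5 and Gbx2 in this comparison, beside 2.18% of all genes. Leaving out E11 10 µm replicate 1 or replicate 2 also let edgeR's test call these 3, with 155 and 164 genes called in all against 20. Among the hindbrain genes listed for comparison, 3 of 8 tested were lower at 10 µm by edgeR's test, namely Hoxa3, Hoxb1 and Hoxb3 (each adjusted p = 0.0339). None of the 8 midbrain genes was called.

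Between E11 10 and 25 µm edgeR called 1 of the 9 members, beside 2.07% of all genes in either direction and 0.455% in the lower one, and 2 members had an unadjusted p under 0.05, beside 11.5% of all genes. This was Wnt1, at least 8.06-fold lower at 10 µm with a floor of 3 counts over the 10 µm pair (edgeR adjusted p = 0.0338). The call did not hold without any 1 of the 3 E10 50 µm libraries or of the 4 E11 libraries, where edgeR's adjusted p ran from 0.0520 to 0.209, nor with the replicate number as a block (adjusted p = 0.0590). The members without a call ran in both directions: En2 was at least 14.9-fold higher at 10 µm (edgeR adjusted p = 0.491), with all 18 counts in replicate 1, whereas Gbx2 had a log2 fold change of -2.21 (SE 0.977, edgeR adjusted p = 0.399). Without E11 10 µm replicate 1 the values of Pax2, Pax5, Fgf8 and Fgf17 turned from above to below 0, so their direction rested on replicate 1. Hoxb1 was also lower at 10 µm, and was the only call among the 8 hindbrain genes tested (log2 fold change -4.42, edgeR adjusted p = 0.00338).

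Between E11 and E10, averaged over the 10 and 25 µm widths, none of the 9 members was called by edgeR, beside 3.6% of all genes; 1 member had an unadjusted p under 0.05, beside 23.1% of all genes. That member was Fgf17, with a log2 fold change of -3.86 (SE 0.982, edgeR adjusted p = 0.0534), which DESeq2 called (adjusted p = 0.00856, beside 7.55% of all genes). En1 had a log2 fold change of 1.75 (SE 0.939, edgeR adjusted p = 0.283) and Lmx1b one of -0.71 (SE 0.502, edgeR adjusted p = 0.411). At 25 µm alone, En2 was at least 24.5-fold lower at E11 than in the single E10 library and Wnt1 at least 2.37-fold higher, in libraries of which the E11 pair held no Otx2. The En2 level in that E10 library rested on 9 counts, with a counting interval from 2.63 to 10.9 CPM that the fold does not include. No member passed edgeR's test of whether the stage change differed between widths (lowest adjusted p = 0.416, for Wnt1), beside 0.137% of all genes, and 3 had an unadjusted p under 0.05, beside 8.44%. Of the genes listed for comparison, those called included Hoxb3, higher at E11 (log2 fold change 3.72, edgeR adjusted p = 0.0205), and the eye gene Rax, lower (-4.13, edgeR adjusted p = 0.0403). Also called were 1 midbrain floor and monoamine neuron gene and 1 limb bud gene, both higher, and 1 blood gene, lower.

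Between E12 and E10 at 50 µm none of the 9 members was called by edgeR, beside 2.14% of all genes, and 4 had an unadjusted p under 0.05, beside 14.4%. Wnt1 was at least 7.32-fold lower at E12 (edgeR adjusted p = 0.0629) and Fgf17 at least 15.4-fold lower (edgeR adjusted p = 0.0980). En2 was higher at E10 by a ratio of 121 with a counting interval from 21.6 to 4784 (edgeR adjusted p = 0.370), and Gbx2 had a log2 fold change of -3.69 (SE 1.13, edgeR adjusted p = 0.128). En1, Pax2 and Lmx1b had log2 fold changes between -0.97 and -0.66. Fitted to these groups alone, edgeR called Pax5, Fgf17, Wnt1 and Gbx2, all lower at E12, beside 7.62% of all genes, and DESeq2 called Pax5, Fgf17 and Gbx2, beside 2.86%. Otx2 was at 3.23 CPM in the single E12 section and Hoxb1 was lower (log2 fold change -2.98, edgeR adjusted p = 0.0498), so stage and the plane of the section cannot be told apart.

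None of the 15 FGF target and feedback genes, and none of the 8 Wnt targets and partners tested, was called by edgeR in any of these 4 comparisons. The lists of otic and kidney genes and of inhibitory neuron genes, which share Lhx1, each had 1 call between the E10 widths, lower at 10 µm. At E12 edgeR also called genes of the midbrain floor, limb bud and somite and dermis lists, all higher, and blood genes in both directions.

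The position of the counts was described in the E10 50 µm libraries, in which a patch is a group of at least 5 touching pixels with a gene. In replicate 1 the largest En2 patch held 75 pixels with 167 counts, 68.4% of the gene's total. In replicate 3 it held 97 pixels with 234 counts, 75.2% of the total. Replicate 2 had 10 En2 counts in 9 pixels and no patch. The En2 patch is thus 1 compact region in 2 of the 3 sections.

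The largest Pax5 patch overlapped this region in part. Its largest patch had 40 pixels in replicate 1 and 90 in replicate 3, and shared 32 and 67 of them with the En2 patch, with centres 3.38 and 1.89 pixels apart. In replicate 2 its largest patch was of 7 pixels and 18 counts, which also held 3 of the 17 En1 counts, 2 of the 10 En2 counts and 13 counts of Otx2.

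The largest En1 patch overlapped that of En2 in 1 section only. In replicate 3 the largest En1 patch had 65 pixels and 130 counts (63.7% of the total) and shared 44 pixels with that of En2. In replicate 1 the largest En1 patch, of 17 pixels and 50 counts, lay 27.5 pixels from the centre of the En2 patch and held no En2 count, 37 of Gbx2 and 16 of Hoxa2. A second En1 patch, of 13 pixels and 15 counts, lay in the En2 region.

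**Figure D2:**
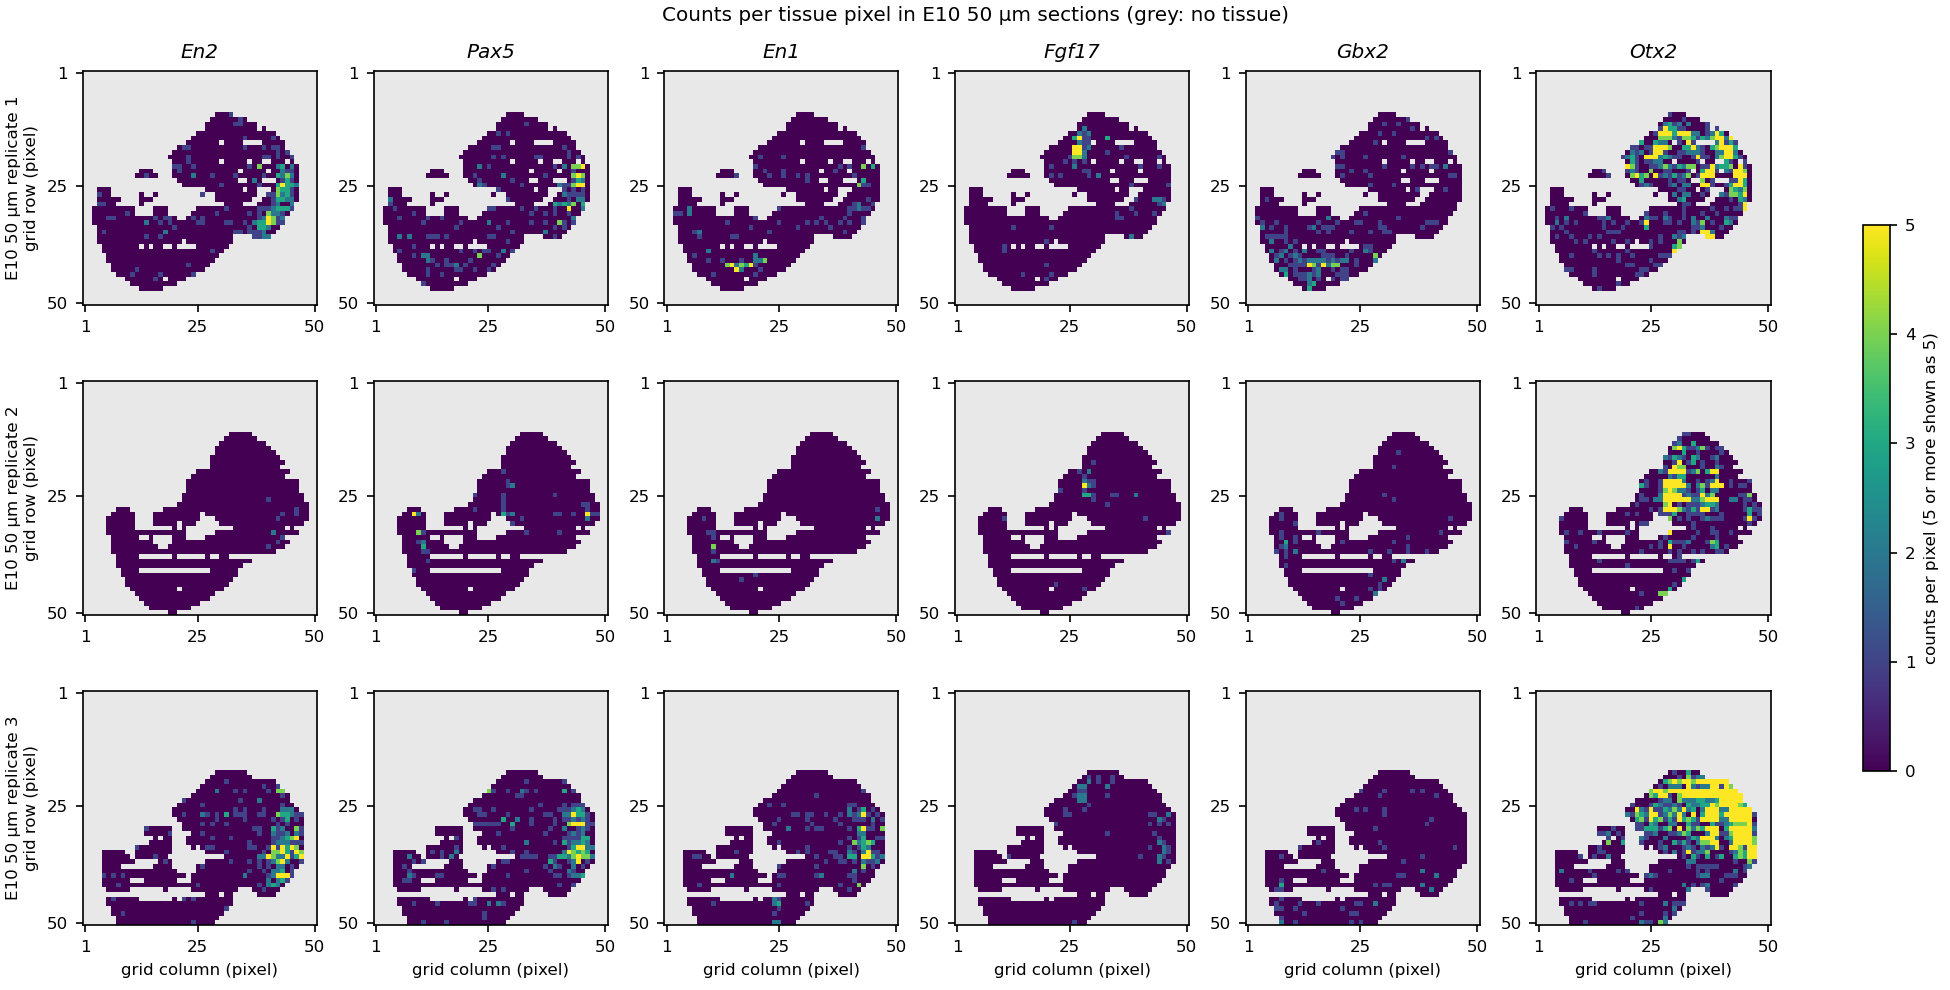
Counts per tissue pixel of En2, Pax5, En1, Fgf17, Gbx2 and Otx2 in the 3 E10 50 µm libraries, on the pixel grid of each section. En2 and Pax5 share 32 pixels of their largest patches in replicate 1 and 67 in replicate 3, and Fgf17 has its largest patch 18.9 and 19.7 pixels from that of En2.

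Levels fell off from the En2 patch at different distances for different members. Pax5 measured 90.7 CPM inside the patch of replicate 1, 50.997 CPM at 1 to 2 pixels and 9.21 CPM at 2 to 5 pixels. In replicate 3 it measured 90.6, 39.0 and 10.3 CPM. Pax5 thus stayed above its farther levels up to 2 pixels outside the En2 patch in both sections. En1 had the same order over these rings, at 62.7, 23.2 and 11.1 CPM in replicate 3 and 35.5, 8.4996 and 3.45 CPM in replicate 1.

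Lmx1b did not peak inside. It measured 8.87 CPM in the patch of replicate 1 but 27.6 CPM at 1 to 2 pixels and 19.6 CPM at 2 to 5 pixels, against 5.45 CPM beyond 10 pixels. In replicate 3 it measured 10.7, 13.002, 8.76 and 5.91 CPM, so the ring at 2 to 5 pixels was below the inside there. By value Lmx1b was thus highest just outside the patch in both sections. This rests on few counts, 9 inside and 13 at 1 to 2 pixels in replicate 1 and 20 inside in replicate 3. The 2 values of replicate 3 were close, and the difference was not tested.

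Gbx2 was low in and around the patch. In replicate 1 it measured 8.87 CPM inside, 4.25 CPM at 1 to 2 pixels and 23.6 CPM beyond 10 pixels, and in replicate 3 it measured 3.22, 4.64 and 8.87 CPM. Only 4.29% and 9.68% of its counts were inside. Hoxa2 behaved alike, at 4.93 and 4.83 CPM inside against 32.6 and 23.4 CPM beyond 10 pixels, while Otx2 was high both inside the patch (200.04 and 198 CPM) and at 2 to 5 pixels (182 and 331 CPM).

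**Figure D3:**
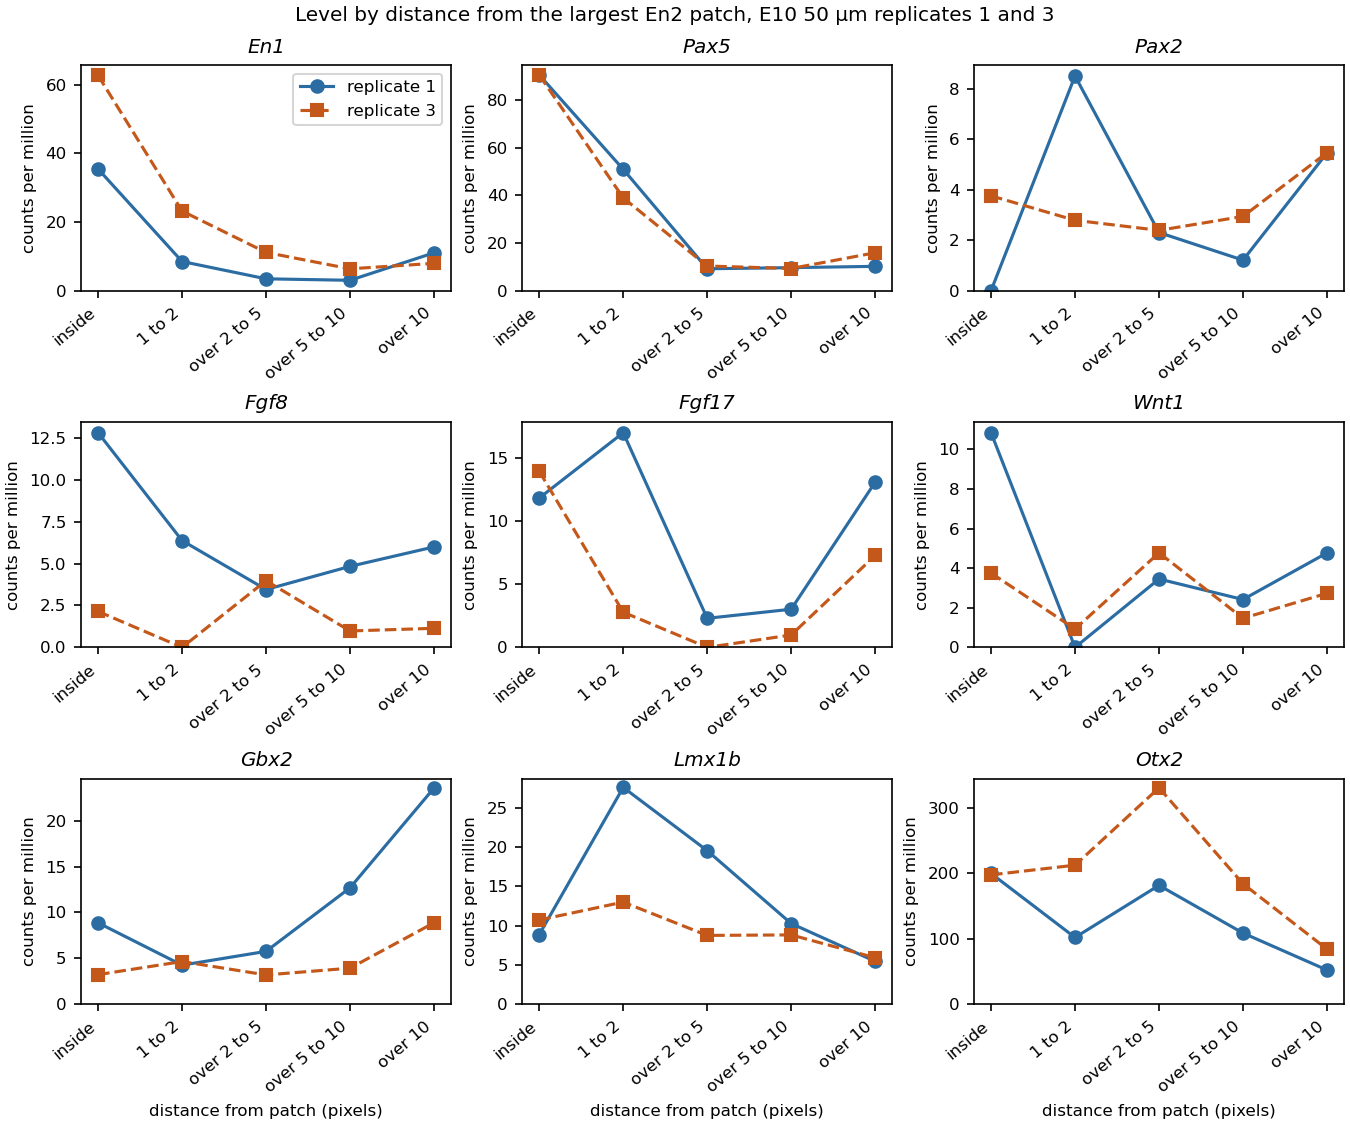
Level in CPM of 8 members and Otx2 inside the largest En2 patch and in rings around it, by distance in pixels, in E10 50 µm replicates 1 and 3. Pax5 goes from 90.7 and 90.6 CPM inside to 9.21 and 10.3 CPM at 2 to 5 pixels, whereas Lmx1b, with few counts, is highest at 1 to 2 pixels.

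Within the En2 region the side richer in Otx2 was compared with the side poorer in it, after a split at the median of the Otx2 count in windows of 3 by 3 pixels. In replicate 1 the 59 pixels of the Otx2-rich side and the 60 of the other had En2 at 133 and 115 CPM, and Wnt1 at 13.6 CPM (9 counts) against 2.92 CPM (2 counts). Fgf8 measured 18.1 CPM (12 counts) against 4.38 CPM (3 counts), Fgf17 18.1 against 8.76 CPM and Pax5 113 against 55.5 CPM. Both ligand families were thus higher on the Otx2-rich side of this section.

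In replicate 3, with 82 pixels on each side, Fgf17 measured 14.2 against 5.16 CPM and Pax5 82.0 against 65.4 CPM, in the same direction. All 4 Fgf8 counts were on the Otx2-rich side, where Wnt1 measured 3.08 against 2.58 CPM. En2 was lower there, at 69.0 against 104.9 CPM, and so was Gbx2, at 1.23 CPM (2 counts) against 7.74 CPM (9 counts). The Gbx2 ratio went the other way in replicate 1, at 9.04 against 5.84 CPM, so the sections did not share a Gbx2 side. Foxa2, a floor plate gene, was higher on the Otx2-rich side in both sections (16.6 against 5.84 and 41.9 against 18.1 CPM) and Atoh1, of the dorsal rhombic lip, was lower (10.5 against 19.0 and 1.85 against 11.2 CPM), and the part of this in the members' values was not tested.

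Some genes of the FGF response were high in the En2 patches. Of the 15 FGF target and feedback genes, 10 in replicate 1 and 9 in replicate 3 were higher in the patch than in the tissue as a whole, with median ratios of 1.54 and 1.14. Of all genes counted at least as often, 46.2% and 44.3% were higher in the patch, with medians of 0.982 and 0.976. Summed, the list was at 1.21 times its tissue level in both patches, beside 1.19 and 1.08 times for the neural tube list. Cnpy1, an FGF feedback gene of the border, was 5.27-fold and 3.08-fold higher, with 113 of its 240 counts and 227 of its 420 counts inside. Spry1, an FGF inhibitor, was 2.93-fold and 1.56-fold higher, Fgf18 2.29-fold and 2.06-fold, and Il17rd, another inhibitor, 1.74-fold and 1.66-fold, whereas the receptor gene Fgfr3 was at 0.431 and 0.618 of its tissue level. Of the Wnt list, 3 of 9 and 4 of 8 genes with a count were above 1, beside 42.6% and 44.4% of all genes.

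The largest patches of Fgf17 and Fgf8 lay outside the En2 patch. The largest Fgf17 patch had 26 pixels and 78 counts (63.4% of the total) in replicate 1, 14 pixels and 26 counts (68.4%) in replicate 2 and 13 pixels and 20 counts (31.7%) in replicate 3. None of the 3 held an En2 count, while they held 126, 128 and 42 counts of Otx2 and 21, 6 and 1 counts of Fgf8. Its centre lay 18.9 and 19.7 pixels from that of the En2 patch in replicates 1 and 3, and all 5 pixels of the only Fgf8 patch of these libraries, in replicate 1, were inside it. In replicate 3 the larger En2 patch held more of both ligands, 26 counts of Fgf17 (41.3%) and 4 of Fgf8, whereas in replicate 1 it held 12 (9.76%) and 13.

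By the number and median of its genes, the FGF response list was high there in replicates 1 and 2 and not in replicate 3. Summed, the list was at 1.68, 1.94 and 1.17 times its tissue level, beside 0.966, 1.15 and 0.884 times for the neural tube list. It had 10, 11 and 6 of 15 genes above their tissue level, with median ratios of 2.14, 2.77 and 0.781. Of all genes counted at least as often as the least counted of the list, 45.4%, 45.8% and 43.2% were above theirs, with medians of 0.963, 0.951 and 0.918. In replicate 1 Spry1 was 4.43-fold higher, Il17rd 4.30-fold and Dusp6, a phosphatase induced by FGF, 2.67-fold, and in replicate 2 these were 4.53, 3.84 and 3.35. In replicate 3 Dusp6 was at 2.17, Il17rd at 1.76 and Spry1 at 0.781 of the tissue level. Cnpy1, so high in the En2 patch, was at 0.674 in the Fgf17 patch of replicate 1.

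Smaller Fgf17 patches lay inside the En2 region. That of replicate 1 had 5 pixels and 8 counts with 9 counts of En2 and 7 of Pax5, and Cnpy1 was 11.5-fold above its tissue level there. The larger of 2 in replicate 3 had 12 pixels and 17 counts (27.0% of the total) with 34 counts of En2, 42 of Pax5 and 24 of En1, and Cnpy1 was 6.03-fold above, Fgf18 5.37-fold and Spry1 3.80-fold. The smaller, of 7 pixels and 9 counts with 12 counts of En2, had Fgf18 3.60-fold above but Cnpy1 at 0.408, Spry1 at 0.727 and Dusp6 at 0.810 of the tissue level. Fgf17 was therefore present at separate sites with and without En2 in these sections.

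Gbx2 had a patch of its own in replicate 1, of 81 pixels and 128 counts (61.0% of the total), 30.3 pixels from the centre of the En2 patch and sharing none of its pixels. It held 84 counts of Hoxa2, 49 of En1 and 14 of Pax2 but 2 of En2 and 13 of Otx2. Its nearest pixel was 13.4 pixels from the En2 patch, so these 2 patches did not touch. Outside this Gbx2 patch the genes did meet: the En2 patch held 9 Gbx2 counts. In the whole section 20 pixels held both genes. Replicate 2 had Gbx2 patches of 8 and 5 pixels only.

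Members that shared pixels were counted against the number expected from how many pixels each gene was found in and how deep each pixel was read. This expectation does not account for tissue type, so any genes of 1 organ would exceed it. Over the 3 E10 50 µm libraries En1 and En2 shared 92 pixels where 49.2 were expected, a ratio of 1.87. En1 and Pax5 shared 95 where 51.3 were expected (1.85), and En2 and Pax5 133 where 74.6 were (1.78). Each of these 3 ratios was above 1 in all 3 libraries.

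The ligand pair Fgf8 and Fgf17 had the highest pooled ratio of the 36 pairs, 2.27, from 15 shared pixels where 6.61 were expected, again above 1 in all 3 libraries. The rank holds for the pool and not within each library: in replicate 1 En1 and Fgf8 were higher (1.96 against 1.88), and in replicate 3 Pax2 and Fgf8 (4.32) and Fgf17 and Wnt1 (2.92) were above its 2.71. Among further pairs, Pax5 and Fgf17 were at 1.51, En1 and Gbx2 at 1.45 and Pax2 and Pax5 at 1.43, each in all 3. En1 and Fgf8 had a ratio of 2.00, but in 2 of the 3 libraries.

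Other pairs shared fewer pixels than expected. En2 and Gbx2 shared 26 pixels where 48.3 were expected (0.538), Fgf17 and Gbx2 had a ratio of 0.616 and Fgf8 and Gbx2 of 0.709, all below 1 in all 3 libraries. Gbx2 and Otx2 were at 0.699 and Fgf17 and Lmx1b at 0.677, likewise. Fgf17 and Otx2 were at 1.504 and Fgf8 and Otx2 at 1.40, both above 1 in all 3. Over all 36 pairs the ratio was 1.04, 1.17 and 1.44 in replicates 1 to 3. In replicate 3 En1 and Gbx2 (1.13) and Pax2 and Pax5 (1.07) were below this value of the whole set.

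**Figure D4:**
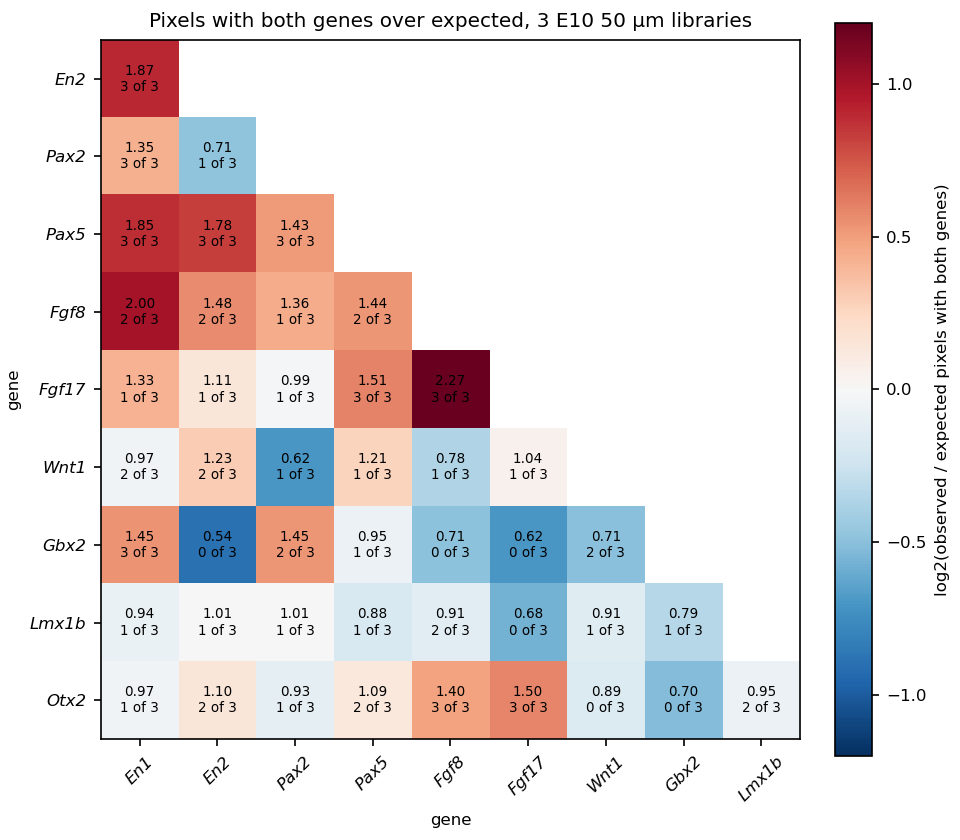
Ratio of observed to expected tissue pixels with both genes for pairs of the 9 members and Otx2, pooled over the 3 E10 50 µm libraries. Fgf8 with Fgf17 (2.27), En1 with Fgf8 (2.00) and the pairs among En1, En2 and Pax5 (1.78 to 1.87) are highest, and En2 with Gbx2 (0.538) is lowest.

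Adjacency gave another order. The level of a second gene in the 4 nearest pixels that lacked the first gene was set against its level in all tissue pixels. All tissue pixels include those with the first gene, which lowers the ratio of a gene that shares its pixels. Next to Wnt1 pixels Lmx1b was 1.48-fold higher (43 counts where 29.1 were expected, above 1 in all 3 libraries), although the pair shared pixels at a ratio of only 0.906. Next to Fgf17 pixels En2 was 1.503-fold higher (135 counts where 89.8 were expected), also in all 3, against 1.11 for shared pixels.

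Next to Pax2 pixels En1 was 1.63-fold higher (89 counts where 54.4 were expected, in all 3 libraries), and En2 at 0.621 of its tissue level (in none of 3). Next to Fgf8 pixels Fgf17 was 1.51-fold and Pax5 1.40-fold higher, in all 3. Next to En2 pixels Fgf17 (0.474) and Wnt1 (0.574) were low in all 3, and next to Fgf8 pixels Gbx2 was at 0.4996. Pooled, En1 (0.665) and Pax5 (0.786) were also below 1 next to En2 pixels, although both shared more pixels with En2 than expected. Low values next to a gene found in many pixels therefore do not show that the 2 genes lie apart. Over all ordered pairs the ratio was 0.986, 1.21 and 1.08 in the 3 replicates.

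Each member clustered with itself. Adjacent pairs of pixels with Fgf17 were 4.18, 8.26 and 4.42 times the number expected in replicates 1 to 3, those with En2 2.39, 4.53 and 2.08 times, and those with Wnt1 2.82, 4.87 and 1.55 times. Lmx1b (1.52, 1.63 and 1.37) and Gbx2 (1.86, 1.98 and 1.33) were below these genes in each library, but Pax5 was at 1.45 in replicate 1. Each of the 9 genes was above 1 in all 3 libraries, as was Otx2 (1.31, 1.67 and 1.42). En2 in replicate 2 and Fgf8 in replicates 2 and 3 had only 1 adjacent pair each. The share of all genes above 1 was not computed.

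Several patches of members carried markers of other tissues. The En1 patch of replicate 1 with Gbx2 and Hoxa2 held a list of inhibitory neuron genes (Gad1, Gad2, Slc32a1, Lhx1, Lhx5 and Foxd3) at 4.79 times its tissue level. The 3 Pax2 patches of replicate 1 held that list at 6.21, 1.73 and 2.37 times and the only one of replicate 3 at 3.51 times. Of the 3 Pax5 patches in replicate 2, that with 5 En1 counts held it at 4.60 times and the others at 0.202 and 1.14 times. The smaller Pax5 patches of replicate 1, without an En2 count, held that list at 4.63 and 5.47 times. Those of replicate 3 held it at 0.766, 3.55, 0.773 and 0.648 times. Over all pixels with Pax2 the list was 2.56-fold, 2.00-fold and 1.71-fold above other pixels in the E10 50 µm replicates and 13.8-fold at E12, where Pax5 pixels had it 15.5-fold higher. The otic and kidney list, which shares Lhx1 with it, was high in the same E10 patches. It was at 4.27 times its tissue level in that En1 patch and 4.41, 1.42 and 2.49 times in the Pax2 patches of replicate 1. In the Pax2 patch of replicate 3 it was at 3.06 times. In the Pax5 patch of replicate 2 with 5 En1 counts it was at 3.38 times, and in the others of that section at 0.280 and 0.552 times. In the smaller Pax5 patches it was at 4.23 and 5.12 times in replicate 1 and at 0.915, 3.34, 0.543 and 0.735 times in replicate 3. The 2 lists were thus not told apart there. In the Pax2 pixels of the E11 25 µm libraries the otic and kidney list was 5.68-fold and 3.17-fold higher. The part of these tissues in the levels of Pax2, Pax5 and En1 was not tested.

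In the E11 25 µm libraries, which held no Otx2 and no En2, the other members had different neighbours. Lmx1b pixels held the limb bud list (Tbx5, Tbx4, Prrx1, Hand2, Fgf10, Hoxd12 and Hoxd13) at 3.98 and 4.11 times the level of other pixels. Its patches there held 8 counts in replicate 1 (50.0% of the total, limb list 4.93 times its tissue level), and 14 and 9 counts in replicate 2 (3.92 and 8.07 times). The 5 Fgf8 pixels of replicate 2 had the limb list 4.69-fold higher, and the single Fgf8 pixel of replicate 1 held no count of the list.

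En1 in E11 25 µm replicate 2 had 24 of its 37 counts in a patch of 9 pixels. This patch held no Lmx1b. It had the limb list at 2.07, the midbrain list at 2.60 and the somite and dermis list at 2.93 times the tissue level. The midbrain list and the somite and dermis list share Pax3, and the part of Pax3 in these values was not tested. Over all En1 pixels the somite and dermis list was 3.23-fold and 2.06-fold higher in the E11 25 µm libraries and 1.65-fold at E12.

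Wnt1 lay with dorsal neural genes in the E10 50 µm and E11 25 µm libraries. In its pixels Olig3, a factor of dorsal progenitors, was 2.46-fold, 3.79-fold and 3.63-fold higher than elsewhere in the E10 50 µm replicates, and 18.9-fold and 23.8-fold in the E11 25 µm libraries. Atoh1 was 3.81-fold, 3.94-fold and 4.33-fold higher and then 25.3-fold and 34.8-fold. Axin2, a feedback target of Wnt signalling, was 2.20-fold, 1.62-fold and 1.33-fold higher and then 3.22-fold and 6.95-fold. Other genes of the Wnt list were mixed. Nkd1 was at 1.64, 0.973 and 1.24 times its level elsewhere and then 3.77 and 1.70 times. Lef1 was at 0.931, 0.727 and 0.860 and then 0.265 and 1.15, and Tcf7 at 0.233, 0.350 and 1.33 and then 0 and 0.569. Wnt8b, another Wnt ligand, was low in Wnt1 pixels of all 3 E10 50 µm libraries, at 0.398, 0.347 and 0.397 of its level elsewhere. In E10 10 µm replicate 1 the 5 Wnt1 pixels held no count of Olig3 or Atoh1, each with 9 counts in the section, and Axin2 at 0.919 of its level elsewhere (1 count). The 20 and 24 Wnt1 pixels of the E11 25 µm libraries held 12 and 20 counts of Olig3, so not every pixel need hold a dorsal marker. These 2 libraries had no Otx2 count in any pixel. The part of these sites in the Wnt1 difference between the E11 widths was not tested.

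**Figure D5:**
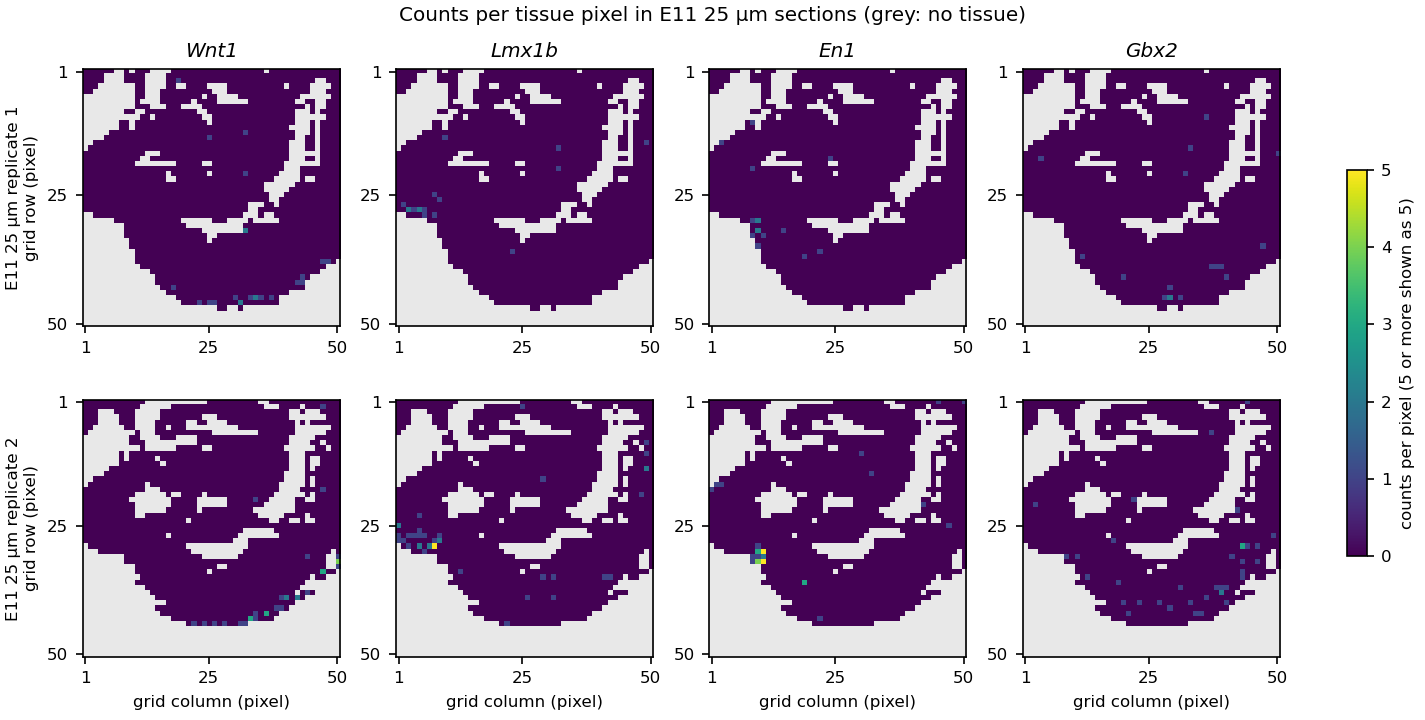
Counts per tissue pixel of Wnt1, Lmx1b, En1 and Gbx2 in the 2 E11 25 µm libraries, on the pixel grid of each section. Wnt1 is in 20 and 24 pixels, and 24 of the 37 En1 counts of replicate 2 are in 1 patch of 9 pixels.

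In E11 10 µm replicate 1, Pax2 had 9 of its 30 counts in a patch of 7 pixels with the eye list (Vax1, Vax2, Rax, Six6, Tyr and Mitf) at 9.96 times its tissue level. Its 18 En2 counts lay in 17 pixels with the midbrain list 2.57-fold higher. The E11 10 µm pair differed in its eye list as in its members, at 59.5 CPM in replicate 1 and 4.4 CPM in replicate 2.

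The genes most like each member in position were ranked by Pearson's r across tissue pixels in windows of 3 by 3, averaged over the libraries in which the member was in at least 1% of pixels. These values share library, depth and overlapping windows, and describe position only. Fgf17 (4 libraries) was most like Il17rd (r = 0.391), Dusp6 (0.355), Otx2 (0.348), Spry1 (0.308) and Lhx8 (0.296), so 3 of its 5 were from the FGF list. Fgf8 (4 libraries) was most like Il17rd at a lower r of 0.185, then Zw10, Six3, Dusp6 and Itm2b. Pax5 (3 libraries) was most like Fgf18 (0.343), Kcnab1 (0.340), Rnd3 (0.321), mt-Atp6 (0.313) and Nkx6-2 (0.305).

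Gbx2 (4 libraries) was most like Glra1 (0.424), Pax3 (0.410), Hoxd4 (0.391), Phyhipl (0.359) and Hoxc4 (0.355), of which the Hox genes mark hindbrain and spinal cord. Wnt1 (5 libraries) was most like Olig3 (0.366), then Col14a1, Axin2, Wnt4 and Draxin. En1 (5 libraries) was most like Zfhx3 (0.235), Gria2, Rnd3, Sncg and Prph, with Rnd3 shared with Pax5. En2 (4 libraries) was most like Ccnd2 (0.284), Dkk2, Lix1, mt-Co3 and Colec12. Pax2 (5 libraries, Mab21l2 at 0.264, then Onecut2, Pou2f2, Snhg11 and Ncam1) and Lmx1b (6 libraries, Lhx9 at 0.219, then Thsd7a, Mab21l2, Crabp1 and Zfhx4) shared Mab21l2.

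In the mouse annotation (GENCODE M21, GRCm38), En1 is at chr1:120602418-120607992 and Gbx2 at chr1:89927956-89931179, En2 at chr5:28165694-28172166, Pax2 at chr19:44756045-44837871 and Fgf8 at chr19:45736798-45742915. Pax5 is at chr4:44524757-44710487, Fgf17 at chr14:70636203-70642268, Wnt1 at chr15:98789857-98793837 and Lmx1b at chr2:33560965-33640511. Pax2 and Pax5 overlap 3 and 4 annotated genes, antisense ones among them, and En2, Gbx2 and Lmx1b overlap 1 each. The use of strand in counting is not given in the sources used here, so reads of these partners cannot be told apart from those of the members.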

How the data were processed

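Per the file layout, the deposited tables hold raw counts of transcripts per gene and pixel; per the submitters' processing notes CASAVA 1.8.2 was used and GRCh38, a human build, was named. The aligner, counter and annotation are not given in the sources used here. The members and all gene lists were chosen with earlier results of these data known.

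A pixel counted as tissue when its total reached 0.1 of the library's 95th percentile. Counts were summed over them per library and tested with edgeR 4.0.16 (R 4.3.3; TMM, low-count filter, robust quasi-likelihood fit of 6 group means over 11 libraries, 5 residual degrees of freedom, Benjamini-Hochberg over 18233 genes), with DESeq2 1.42.0 as an alternative. The fit was tested on simulated data. 2 groups hold 1 library and share the spread of the others. A gene without a column in a file was taken as 0 counts. Replicates differed beyond sampling noise (chi-square over degrees of freedom 24.6 to 70.0). Floors are 3 counts, and intervals are exact at 95%. A fold given as at least a value sets the group without counts at this floor. It takes the other group at its measured mean, without the counting error of that mean.

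Named are all 9 members, Otx2, the 5 genes most like each member and some of the list genes that were called. Also named are list genes that bear on a patch, ring or border side (chosen after their values were seen). Likeness used log2 of window counts per 10000 plus 1 over genes in at least 2% of tissue pixels. Promoter windows matched 6 members. The 4 antibody libraries were not used.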

Additional observations from a re-analysis of the deposited data

How the results depend on the processing

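The number of members called changed with the test. DESeq2 called 1 member between E11 and E10, 3 between the E10 widths and 3 between E12 and E10. Without a filter on low counts edgeR called 1, 4 and 4, with library totals only or all deposited pixels 1 between E11 and E10, and with only the groups compared 4 between E12 and E10. Leaving out 1 library gave 0 to 1 (E11 against E10), 0 to 3 (E10 widths), 0 to 1 (E11 widths) and 0 to 2 (E12). The replicate block of the E11 titles left 0 members and 297 genes called between the E11 widths, against 378; same-numbered libraries deviated with r = 0.0544, so the numbers are not shown to pair them. Of the log2 changes of single members, 568 kept their direction and side of the threshold, 40 became and 8 ceased to be calls, and 18 turned direction. Turned were Pax2 between the stages under DESeq2 (0.0227) and, on leaving out 1 library, Pax2 (-1.97 to 0.46), Pax5 (-3.43 to 2.48) and Gbx2 (-0.0539 to 2.78) between the stages, Fgf8 between the E10 widths (-0.91 to 0.70), En2 (0 to 8.61), Pax2 (-2.11 to 2.76), Pax5 (-5.72 to 1.72), Fgf8 (-4.84 to 4.003), Fgf17 (-2.52 to 6.16) and Lmx1b (-2.03 to 0.30) between the E11 widths, and En1 at E12 (-1.13 to 0.0390). The mean log2 ratio over pairs was 0.27 for shared pixels (0.14 to 0.38 without 1 library) and 0.12 for neighbours (0.04 to 0.19). With at least 2 counts per pixel these were 0.94 and 0.48. The level in tissue pixels without the first gene, added after the data were seen, gave 0.22 for neighbours. The cause of these changes was not tested. Few counts limit the values outside E10 50 µm, where 6 of the 8 libraries held 104 or fewer counts of the 9 genes, and E10 10 µm replicate 1, the library with the most counts in all, held 228.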
